A study of Mus musculus with 6 samples.

Results

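The 10 genes described here encode transcription factors that act in blood stem cells and early progenitors: Erg, Fli1 and Etv6 of the ETS family, the zinc finger genes Mecom, Prdm16, Gfi1b and Bcl11a, the basic leucine zipper gene Hlf, Myb, and Mycn of the MYC family. They were taken by name from a list and matched by Ensembl identifier; all 10 were among the 20097 genes listed in the deposited files, and all 10 were among the 15410 genes that passed the filter on low values. RNA came from mouse bone marrow cells positive for c-Kit, the stem cell factor receptor, and the label WT was given to 3 libraries and the label Runx1 KO to another 3; the comparison asks which genes differ between them. The sources used here do not give the Runx1 allele, the promoter of any Cre, the strain, age or sex, whether animals were pooled, or any treatment, and nothing says whether the 3 libraries of a label came from separate animals. P-values therefore measure the spread between these libraries.

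Blood stem cells are maintained by sets of transcription factors that act together, and several of these factors also have later roles in single lineages. ETS proteins share a DNA-binding domain that recognises a GGAA core. RUNX1 binds many blood enhancers together with ETS and GATA proteins, and Erg, Fli1 and Gfi1b belong to the group of factors known to act with it.

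Values are normalised read counts, whose spacing is that of whole reads scaled by 1 factor per library. Depth was similar, at 23297526 to 26793380 recovered reads per library. As a check on the labels, the targeted gene Runx1 was at 3031, 2799 and 3497 normalised reads under the label WT and at 6648, 6720.4 and 5829.9 under the label Runx1 KO. The transcript was thus not lower under the knockout label, values summed over a gene cannot show a missing exon, and every direction below runs between libraries as labelled. Kit, which encodes the sorted receptor, was abundant in all 6 libraries, from 7979 to 8471 under the label WT and from 11507 to 13684 under the label Runx1 KO. On the first principal component, with 69.2% of the variance, Runx1 KO replicate 1 lay at 22.8 and the other libraries with that label at 64.5 and 60.8, while the libraries labelled WT lay between -65.0 and -39.8.

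Of the 10 factors, 6 were higher and 1 was lower in the libraries labelled Runx1 KO, and 3 did not pass the test. Mycn, Gfi1b and Hlf rose most, to 2.46, 2.18 and 2.02 times their means under the label WT. Erg, Myb and Etv6 rose by smaller amounts, Fli1 fell slightly, and Mecom, Prdm16 and Bcl11a did not pass. In bulk RNA such as this, fewer cells of a type and less RNA per cell cannot be told apart. The test was limma on log2(normalised read count + 1), two-sided, with a Benjamini-Hochberg adjusted p under 0.05 over all 15410 genes. By that rule 21.9% of all tested genes were called, 10.6% higher and 11.3% lower, and the edgeR quasi-likelihood test called the same 7 factors against 21.2% of all genes. The median log2 change of the 10 factors was 0.52, against -0.0042 over all tested genes. Scaling to library totals moved all log2 changes up by 0.08 in the median and raised the share of higher genes among those called from 48.4% of 3370 to 63.5% of 3755; it called 7 of the 10 factors too, all higher, with Bcl11a in place of Fli1. Without Runx1 KO replicate 2 only Hlf, Myb, Erg and Mycn passed, and the other 5 fits with a library left out gave from 5 to 8 of the 10.

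The libraries of the labels did not overlap for 8 of the 10 factors, 7 higher and Fli1 lower. Over all tested genes this held for 43.3%, made up of 21.4% higher and 21.9% lower. Mecom and Prdm16 were the factors whose libraries overlapped.

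**Figure D1:**
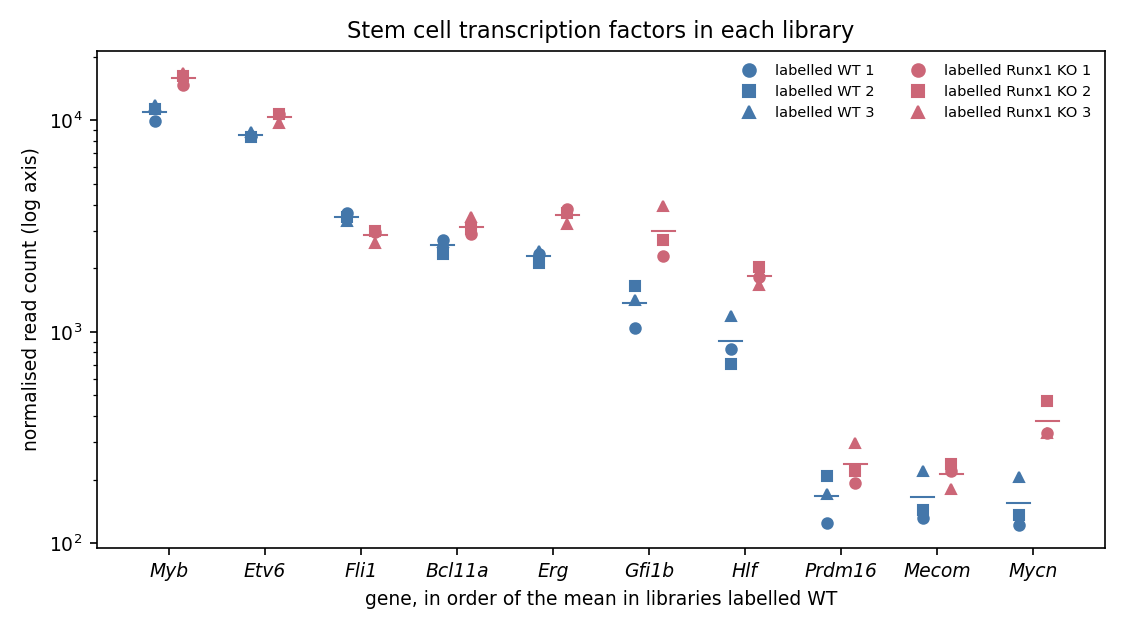
Normalised read count (log axis) of each factor in the 3 libraries labelled WT (blue) and the 3 labelled Runx1 KO (red), with short lines at the means. Blue and red symbols are apart for 8 genes and mixed for Prdm16 and Mecom.

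**Figure D2:**
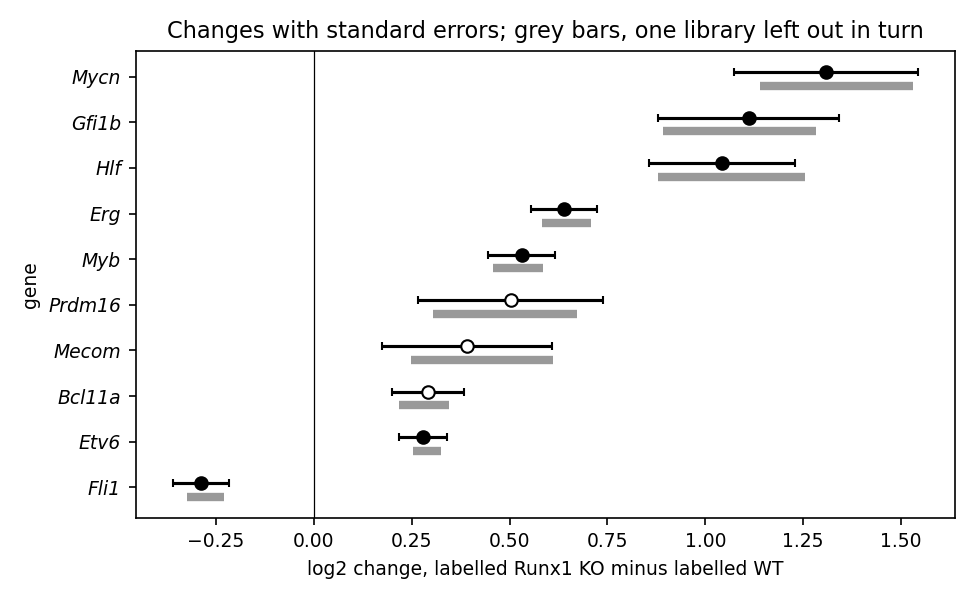
Log2 change of each factor (labelled Runx1 KO minus labelled WT) with its standard error from limma; filled points passed an adjusted p of 0.05, and grey bars span the 6 fits that each left out 1 library. Fli1 alone lies below 0, and no grey bar crosses 0.

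The promoters were read for sequence that the expression values did not use. RefSeq start sites on GRCm38.p6 were found for 9 of the 10 factors, as 12 windows of 250 bases before the start; Fli1 had no entry. The motifs searched, on both strands, were the RUNX cores TGTGGT and TGCGGT, the GATA motif AGATAA, the ETS motif CCGGAA, the E-box CACGTG and the GFI core AAATCA. The 4 windows printed here each hold a match, belong to factors that rose, and hold no base annotated as exon in GENCODE M21; capitals mark the matches.

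Gfi1b, chr2:28621983-28622232, minus strand: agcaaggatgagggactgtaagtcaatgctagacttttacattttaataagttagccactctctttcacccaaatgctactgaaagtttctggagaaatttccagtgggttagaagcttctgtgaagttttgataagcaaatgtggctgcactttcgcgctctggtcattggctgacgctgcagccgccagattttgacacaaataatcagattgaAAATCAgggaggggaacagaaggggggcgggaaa
Hlf, chr11:90390918-90391167, minus strand: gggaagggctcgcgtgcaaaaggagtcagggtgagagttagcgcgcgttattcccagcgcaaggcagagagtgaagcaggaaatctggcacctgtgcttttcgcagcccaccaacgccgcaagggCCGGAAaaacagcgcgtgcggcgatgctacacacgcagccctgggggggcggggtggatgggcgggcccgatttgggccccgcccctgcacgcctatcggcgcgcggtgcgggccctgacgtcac
Erg, chr16:95459349-95459598, minus strand: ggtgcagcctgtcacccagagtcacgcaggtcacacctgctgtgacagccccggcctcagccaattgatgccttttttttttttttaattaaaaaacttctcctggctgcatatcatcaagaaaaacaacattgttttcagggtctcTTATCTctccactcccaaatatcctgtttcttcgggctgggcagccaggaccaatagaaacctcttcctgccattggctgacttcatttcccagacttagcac
Etv6, chr6:134035450-134035699, plus strand: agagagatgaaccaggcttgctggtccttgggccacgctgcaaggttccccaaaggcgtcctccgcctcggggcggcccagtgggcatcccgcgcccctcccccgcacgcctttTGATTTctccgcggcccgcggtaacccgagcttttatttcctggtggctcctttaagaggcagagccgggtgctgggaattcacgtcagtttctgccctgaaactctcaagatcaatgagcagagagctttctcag

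In Gfi1b the capitals are the GFI core, 34 bases before the start. In Etv6 they are the same core on the opposite strand, 136 bases before the start. In Hlf they are the ETS motif, and in Erg, shown at 1 of its start sites, the GATA motif on the opposite strand. The GFI core was present in 4 of the 12 windows, 1 each of Mecom, Gfi1b, Etv6 and Mycn, and in 12.4% of all 32851 promoter windows of that length. The ETS and GATA motifs were each in 1 of the 12 windows, against 12.03% and 9.99% of all windows. Neither RUNX core was in any of the 12 windows, while 14.1% of all windows held TGTGGT and 5.10% held TGCGGT; the E-box was in none either, against 6.02%. These are matches of letters in a short window and say nothing of binding or of more distant enhancers.

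Erg (ENSMUSG00000040732; chromosome 16, 95359169 to 95586593, minus strand, GRCm38) encodes an ETS activator needed to maintain adult blood stem cells. Its level was 2339, 2109 and 2421 normalised reads under the label WT (2289.6 ± 162, SD, n = 3). Under the label Runx1 KO it was 3825, 3641 and 3246 (3571 ± 296, SD, n = 3). All libraries labelled Runx1 KO were above all those labelled WT, and the spread within each label was narrow, with a coefficient of variation of 7.07% and 8.29%. The log2 change was 0.64 (SE 0.08; limma adjusted p 0.00404), and Erg passed in each of the 6 fits with a library left out.

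Fli1 (ENSMUSG00000016087; chromosome 9, 32422204 to 32542861, minus strand) is the closest relative of Erg and also drives megakaryocyte genes. It had 3658, 3509 and 3348 normalised reads under the label WT (3505 ± 155, SD, n = 3) and 2963, 3016 and 2639 under the label Runx1 KO (2873 ± 204, SD, n = 3). The groups did not overlap, but the step was small: the lowest library labelled WT was 1.11 times the highest labelled Runx1 KO. The log2 change was -0.29 (SE 0.07; limma adjusted p 0.0303). Among the 6 fits with a library left out it passed only without Runx1 KO replicate 1 (limma adjusted p 0.0386) and reached an adjusted p of up to 0.0932 in the other 5, and it was lost with scaling to library totals, where the change was -0.21 and the adjusted p 0.0569.

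Erg and Fli1 have exons of similar total length, 3466 and 3486 bases in GENCODE M21, so that their levels can be set side by side per kilobase. Under the label WT, Fli1 stood at 1006 ± 44.6 normalised reads per kb and Erg at 661 ± 46.7. Under the label Runx1 KO the order was the reverse, with Erg at 1030.3 ± 85.4 and Fli1 at 824 ± 58.5 (SD, n = 3). The ratio of Erg to Fli1 was 0.643, 0.604 and 0.727 in the libraries labelled WT and 1.30, 1.21 and 1.24 under the label Runx1 KO. The ratio was below 1 in every library of the first label and above 1 in every library of the second, a log2 difference of 0.93. Erg was higher and Fli1 lower in all libraries labelled Runx1 KO, without overlap, so the ratio had to separate the labels. An exact two-sided permutation test over the libraries was therefore bound to give p = 0.1, the smallest that 3 against 3 allows. It adds no support for a difference. This ratio does not depend on how the libraries were scaled. The ratio of Etv6 to Fli1 was higher in each library labelled Runx1 KO as well, at 1.43 ± 0.10 and 2.11 ± 0.0389 (SD, n = 3).

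Etv6 (ENSMUSG00000030199; chromosome 6, 134035700 to 134270158, plus strand) encodes an ETS repressor needed by stem cells in adult marrow. Its counts were 8472, 8385 and 8848 in the libraries labelled WT and 10708, 10746 and 9754 under the label Runx1 KO. No library crossed over, and the spread within the label WT was the smallest of the 10 factors, with a coefficient of variation of 2.87%. The mean went from 8568 ± 246 to 10403 ± 562 (SD, n = 3), a log2 change of 0.28 (SE 0.06, limma adjusted p 0.0197). Etv6 lost its call in 3 of the 6 fits with a library left out, namely without WT replicate 1, WT replicate 2 or Runx1 KO replicate 2, with adjusted p values of limma up to 0.0899.

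The wider ETS family was listed in full. Of its 26 genes, 21 were in the files and 20 were tested. Of these, 3 were higher, 4 were lower and 13 did not pass, which is 35.0% called against 21.9% of all genes. Without Erg, Fli1 and Etv6, 4 of 17 tested genes were called (23.5%), close to the share of all genes. The median log2 change over the 20 genes was -0.08. Beside Erg and Etv6 the higher gene was Erf, an ETS repressor, with 918 ± 31.4 and 1125 ± 45.5 normalised reads (SD, n = 3) and a log2 change of 0.29 (SE 0.07, limma adjusted p 0.024); it passed in 2 of the 6 fits with a library left out. Elf1, a lymphoid ETS activator, had a log2 change of 0.24 (SE 0.09) and did not pass (limma adjusted p 0.0916). Beside Fli1 the lower genes were Ets1, Spi1 and Spib. Scaling to library totals also called 7 ETS genes, 5 higher and 2 lower, with Etv3 and Elf1 in place of Fli1 and Spi1. The count of called ETS genes fell to 3 without WT replicate 2 and without Runx1 KO replicate 2, which left Ets1, Erg and Spib, and to 4 without WT replicate 3 or Runx1 KO replicate 3, which left these genes and Etv6.

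Ets1, a factor of lymphoid and other cells, had 4693, 3154 and 3176 normalised reads under the label WT and 1046, 613 and 547 under the label Runx1 KO. Every library labelled Runx1 KO was thus far below the lowest labelled WT, a log2 change of -2.35 (SE 0.26, limma adjusted p 0.00279). Spib, a factor of B cells and plasmacytoid dendritic cells, had 6036, 1507 and 2646 against 196, 33.7 and 21.9, a log2 change of -5.75 (SE 0.84, limma adjusted p 0.0057). Spi1, which encodes the myeloid and B-cell factor PU.1, changed by -0.36 (SE 0.10), with a limma adjusted p of 0.0403; it did not pass in edgeR or in 5 of the 6 fits with a library left out.

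Fli1 and Ets1 are neighbours on chromosome 9, on opposite strands with 93359 bases between them, and both fell. Their relatives Erg and Ets2 are neighbours on chromosome 16, with 115481 bases between them. There Erg rose, while Ets2 had 3735, 1366 and 1611 normalised reads under the label WT and 1174, 992 and 882 under the label Runx1 KO, with a limma adjusted p of 0.0838. The high Ets2 value of WT replicate 1 sets the width of that group.

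Relative to the sum of all 21 listed ETS genes per kilobase, Erg took 5.78% ± 0.61 under the label WT and 10.4% ± 0.17 under the label Runx1 KO. Etv6 took 12.6% ± 1.57 and 17.6% ± 0.49, and Fli1 8.80% ± 0.87 and 8.33% ± 0.29 (SD, n = 3). The sum itself was 11518 ± 1466 and 9891 ± 677 normalised reads per kb. Shares depend on the other genes in the sum: Spib alone took from 5.07% to 16.0% of it in the libraries labelled WT and at most 0.649% under the label Runx1 KO.

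**Figure D3:**
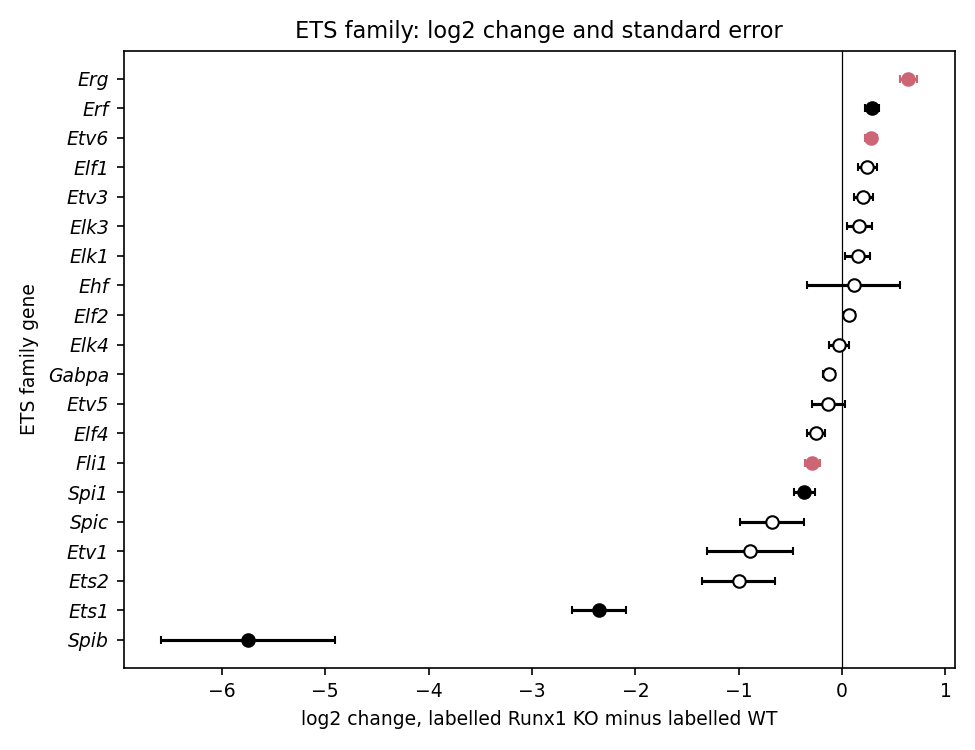
Log2 change (labelled Runx1 KO minus labelled WT) with its standard error for the 20 tested ETS genes; red marks Erg, Fli1 and Etv6, and filled points passed an adjusted p of 0.05. Most genes lie near 0, Ets1 and Spib far to the left, and Erg farthest to the right.

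Mecom (ENSMUSG00000027684; chromosome 3, 29951296 to 30548008, minus strand) encodes EVI1 and the longer MDS1-EVI1 protein, and Prdm16 (ENSMUSG00000039410; chromosome 4, 154316125 to 154636873, minus strand) a close relative; both are required for long-term stem cells. Mecom had 132, 144 and 219 normalised reads under the label WT and 219, 238 and 181 under the label Runx1 KO. WT replicate 3 lay at the level of Runx1 KO replicate 1 and above Runx1 KO replicate 3, so the groups overlapped. The log2 change was 0.39 (SE 0.22; limma adjusted p 0.234). Values for the gene do not separate EVI1 from MDS1-EVI1 transcripts.

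Prdm16 had 125, 208 and 171 normalised reads under the label WT and 194, 220.0 and 297 under the label Runx1 KO. The lowest library labelled Runx1 KO fell below the highest labelled WT, and the log2 change was 0.50 (SE 0.24, limma adjusted p 0.166). Both genes were sparse in these cells, at 13.3 ± 3.79 and 17.997 ± 4.47 normalised reads per kb under the label WT and 17.1 ± 2.33 and 25.4 ± 5.79 under the label Runx1 KO (SD, n = 3). Neither passed in any of the 12 settings with all libraries or of the 6 with a library left out. In the PRDM family 10 of 15 genes were tested, and Prdm11 was the gene that passed (log2 change 0.48, SE 0.11, limma adjusted p 0.0228), as it did in 3 of the 6 fits with a library left out. That is 10% of the tested PRDM genes, below the 21.9% over all genes. Prdm1, the plasma cell regulator, and Prdm2 had log2 changes of -0.08 (SE 0.31) and -0.10 (SE 0.10) and did not pass.

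Gfi1b (ENSMUSG00000026815; chromosome 2, 28609450 to 28621982, minus strand) encodes a zinc finger repressor needed for red cell and platelet formation and for stem cell quiescence. It had 1048, 1646 and 1416 normalised reads under the label WT and 2289, 2725 and 3943 under the label Runx1 KO. The groups were apart, but the libraries labelled Runx1 KO differed by a factor of 1.72 among themselves, with replicate 3 the highest. The mean went from 1369.7 ± 302 to 2986 ± 857 (SD, n = 3), a log2 change of 1.11 (SE 0.23, limma adjusted p 0.0173). Its call was lost when Runx1 KO replicate 2 was left out (adjusted p 0.056 in limma).

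Its paralog Gfi1, which acts in stem cells, lymphocytes and neutrophils, had 2009, 2964 and 2783 against 3187, 3998 and 3894 normalised reads. Its groups were apart as well, but it did not pass (log2 change 0.53, SE 0.16, limma adjusted p 0.0543). Per kilobase, the ratio of Gfi1b to Gfi1 was 0.908, 0.967 and 0.886 in the libraries labelled WT and 1.25, 1.19 and 1.76 in those labelled Runx1 KO, with an exact permutation p of 0.1. On that scale Gfi1b was below Gfi1 in each library of the first label and above it in each of the second. The side of 1 depends on the merged exon lengths used, 1830 bases for Gfi1b and 3187 for Gfi1. In normalised reads not divided by length, Gfi1b was below Gfi1 in Runx1 KO replicates 1 and 2 as well.

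GFI1 proteins repress by recruiting LSD1, encoded by Kdm1a, with CoREST proteins and histone deacetylases. Kdm1a, the CoREST gene Rcor1, Hdac1 and Hdac2 did not pass (limma adjusted p 0.645, 0.464, 0.757 and 0.443). Their log2 changes were 0.05, 0.09, -0.05 and 0.06. Among genes of that complex, Phf21a, which encodes the histone-binding subunit BHC80, was higher (log2 change 0.43, SE 0.11, limma adjusted p 0.0327) and passed in 1 of the 6 fits with a library left out. Rcor2, a CoREST paralog, fell from 198 ± 29.3 to 81.4 ± 4.93 normalised reads (SD, n = 3; log2 change -1.26, SE 0.16, limma adjusted p 0.0037).

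Bcl11a (ENSMUSG00000000861; chromosome 11, 24078056 to 24174123, plus strand) encodes the repressor of fetal globin genes and is needed for B cells and plasmacytoid dendritic cells. It had 2726, 2328 and 2659 normalised reads under the label WT and 2916, 3055 and 3478 under the label Runx1 KO. The lowest library labelled Runx1 KO was 1.07 times the highest labelled WT, so the groups were apart by a narrow margin. The log2 change of 0.29 (SE 0.09) had a limma adjusted p of 0.0609. It passed with DESeq2 (adjusted p 0.0295) and with scaling to library totals (adjusted p 0.0309), and in the fit without Runx1 KO replicate 1 (adjusted p 0.0483). Bcl11b, the T-cell paralog, was near the lower end of the data, at 46.5, 19.2 and 29.7 against 58.6, 6.94 and 2.98 normalised reads, and did not pass (limma adjusted p 0.348).

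Hlf (ENSMUSG00000003949; chromosome 11, 90336536 to 90390895, minus strand) encodes a PAR-domain leucine zipper factor that marks the most primitive blood cells. It had 830.0, 707 and 1192 normalised reads under the label WT and 1826, 2023 and 1658 under the label Runx1 KO. WT replicate 3 stood above the other libraries with that label, and the lowest library labelled Runx1 KO was still 1.39 times WT replicate 3. The mean went from 909.9 ± 252 to 1836 ± 183 (SD, n = 3), a log2 change of 1.04 (SE 0.19, limma adjusted p 0.0106), and it passed in all 6 fits with a library left out. Its relatives Tef and Dbp, which follow the circadian clock, did not pass, with log2 changes of 0.20 (SE 0.14) and 0.37 (SE 0.17). Nfil3, a repressor that competes for the same sites, had 1599, 871 and 1011 against 912, 407 and 349 normalised reads (limma adjusted p 0.0731). Per kilobase, the ratio of Hlf to Tef was 1.26 ± 0.165 under the label WT and 2.26 ± 0.314 under the label Runx1 KO (SD, n = 3), without overlap.

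Myb (ENSMUSG00000019982; chromosome 10, 21124935 to 21160984, minus strand) encodes the factor c-MYB, which sustains progenitor growth. It had 9904, 11275 and 11856 normalised reads under the label WT and 14746, 16221 and 16709 under the label Runx1 KO. The groups were apart, and the log2 change was 0.53 (SE 0.09; limma adjusted p 0.00766). Its paralogs Mybl1 and Mybl2, the latter a cell cycle factor, did not pass, with log2 changes of -0.12 (SE 0.14) and -0.21 (SE 0.13). Myb took 61.5% ± 2.70 of the 3 MYB genes per kilobase under the label WT and 72.7% ± 1.32 under the label Runx1 KO (SD, n = 3).

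Mycn (ENSMUSG00000037169; chromosome 12, 12936093 to 12941914, minus strand) encodes N-MYC, which acts with c-MYC in stem cells. It had 122, 136 and 205 normalised reads under the label WT and 333, 473 and 332 under the label Runx1 KO. The lowest library labelled Runx1 KO was 1.62 times the highest labelled WT, the widest gap among the 10 factors. The mean went from 154 ± 44.7 to 379 ± 81.0 (SD, n = 3), a log2 change of 1.31 (SE 0.23, limma adjusted p 0.0106), and it passed in all 6 fits with a library left out.

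Mycn remained a small part of the MYC paralogs: per kilobase it took 1.88% ± 0.28 of their sum under the label WT and 3.02% ± 0.43 under the label Runx1 KO (SD, n = 3), the rest being mainly Myc. Myc rose too, from 6457 ± 943 to 9967 ± 1176 normalised reads (SD, n = 3; log2 change 0.63, SE 0.13, limma adjusted p 0.0159), and passed in 4 of the 6 fits with a library left out. Mycl had 153, 137 and 155 against 116, 54.5 and 33.8 and did not pass (limma adjusted p 0.0619). Among the 12 tested genes of the MYC network, 3 were higher and 1 was lower, which is 33.3% called against 21.9% of all genes. Without Mycn, 3 of 11 tested genes were called (27.3%). Beside Mycn and Myc the higher gene was Mga, an antagonist of MYC at shared sites (log2 change 0.52, SE 0.11, limma adjusted p 0.0178), which passed in 2 of those 6 fits. The lower gene was Mxd3, another antagonist (-0.98, SE 0.15, adjusted p 0.00695).

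**Figure D4:**
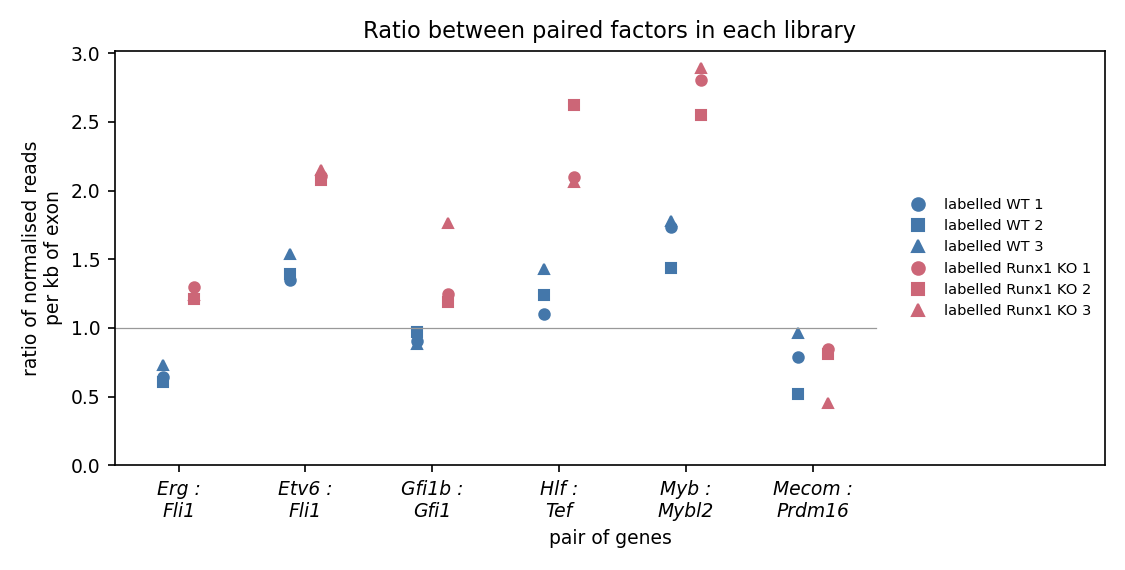
Ratio of normalised reads per kb of exon between pairs of factors, 1 symbol per library, with a grey line at equal levels. Erg to Fli1 and Gfi1b to Gfi1 lie below 1 in the libraries labelled WT and above 1 in those labelled Runx1 KO, while Mecom to Prdm16 overlaps between the labels.

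Per kilobase under the label WT, the order of the 10 factors ran from Etv6 (1432 ± 41.1) and Myb (1233 ± 112) through Fli1, Gfi1b (748 ± 165), Erg, Bcl11a (195 ± 16.2), Hlf (136 ± 37.7) and Mycn (46.9 ± 13.6) to Prdm16 and Mecom (SD, n = 3). The intervals of 1 SD overlapped between Gfi1b and Erg and between Prdm16 and Mecom. Under the label Runx1 KO, Myb (1779 ± 114), Etv6 (1739 ± 93.9) and Gfi1b (1632 ± 469) stood close together with overlapping intervals. Erg, Fli1, Hlf (275 ± 27.3), Bcl11a (239 ± 22.2) and Mycn (115 ± 24.6) followed, and Prdm16 and Mecom were again the lowest, with Hlf and Bcl11a overlapping.

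Within the labels, the factors fell into a pair of patterns. Gfi1b, Myb, Prdm16 and Bcl11a were highest in Runx1 KO replicate 3 and lowest in Runx1 KO replicate 1. The other 6 factors, Mecom, Hlf, Erg, Fli1, Etv6 and Mycn, were all lowest in Runx1 KO replicate 3. For Mycn this was nearly a tie, at 332.6 normalised reads in Runx1 KO replicate 1 and 332.2 in replicate 3. Among the libraries labelled WT, replicate 3 was the highest for 6 factors (Mecom, Hlf, Myb, Erg, Etv6 and Mycn). With 3 libraries a label this is a description of these libraries.

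Some genes of other lists, picked after their values were seen, shared those orders. Tal1, a factor of stem and red cells, had 3259.5, 3921 and 4927 normalised reads in Runx1 KO replicates 1 to 3, and Zfpm1, which encodes the GATA cofactor FOG1, had 4544, 5472 and 6276, so both were highest in the same library as Gfi1b. Meis1, a HOX cofactor of stem cells, had 1457, 1514 and 1158 there and 629, 515 and 962 in WT replicates 1 to 3, so it was highest and lowest in the same libraries as Hlf.

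**Figure D5:**
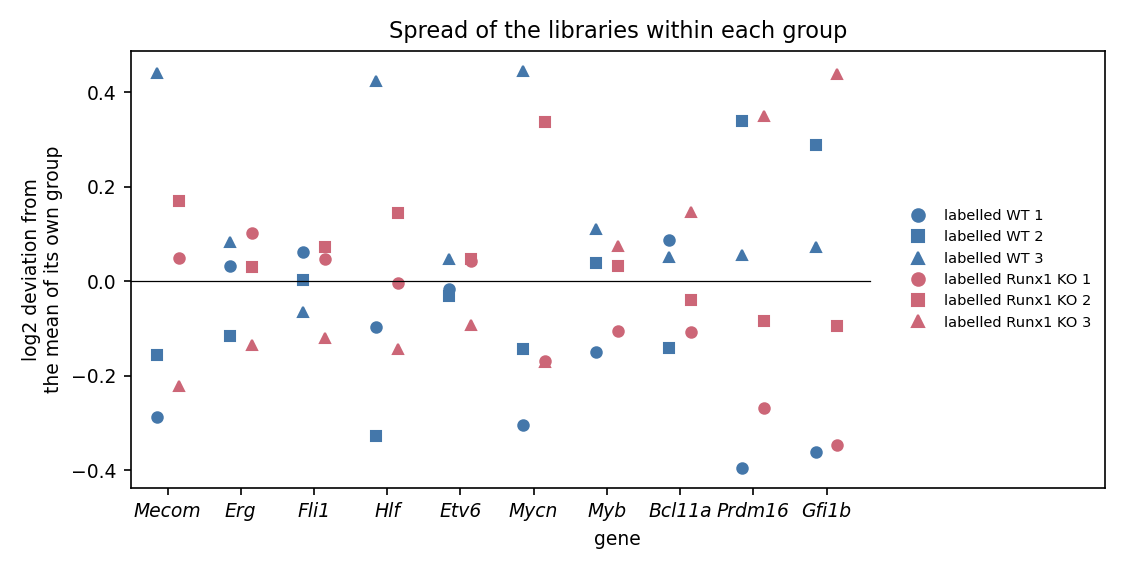
Log2 deviation of each library from the mean of its own label, for each factor. The red triangle, Runx1 KO replicate 3, lies lowest of the red symbols in 6 factors and highest in Myb, Bcl11a, Prdm16 and Gfi1b. In Mycn, 1 of the 6, it is nearly level with Runx1 KO replicate 1.

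The tested genes with the most similar profiles were found by Euclidean distance between log2 values centred over the 6 libraries. For Hlf they were Rab11fip3 (distance 0.17) and Meis1 (0.18), for Erg Fndc3b (0.10) and Zmym6 (0.11), and for Fli1 Lmnb1 (0.08) and Vrk2 (0.08). For Etv6 they were Mad2l2 (0.04) and Rcor3 (0.05), and for Myb Zfp956 and Tctn3 (0.07 each). For Gfi1b they were Il1rl1 and Hoxa6 (0.26 each), and for Mycn Gm16897 (0.32) and Nr2f6 (0.33). For Mecom they were C77080 and Slc4a8 (0.17 each), for Prdm16 Dnajb3 (0.23) and Flywch2 (0.24), and for Bcl11a Fam193b (0.08) and Tent5a (0.09). Weakly expressed genes have noisier profiles, so distances are not comparable between factors.

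Of 24 other regulators of blood stem cells, all were listed and 23 were tested; 15 were higher and 8 did not pass, which is 65.2% called against 21.9% of all genes. edgeR called 15 as well, and without Runx1 KO replicate 2 limma called 8. Their median log2 change was 0.67. Beside Runx1, the 15 were Gata2, Tal1, Lyl1, Lmo2, Ldb1, Meis1, Hoxa5, Hoxb4, Hoxb5, Mllt3, Nfix, Ikzf2, Foxo3 and Zfpm1. Hoxb5, a gene restricted to long-term stem cells, showed the largest change of the list, from 6.92, 4.04 and 13.4 to 51.3, 50.5 and 97.5 normalised reads (log2 change 2.95, SE 0.45, limma adjusted p 0.00667). Mllt3 (0.78, SE 0.08) and Nfix (0.67, SE 0.07), both of which support stem cell maintenance, had limma adjusted p values of 0.00265 and 0.00209. The list was drawn up with earlier results of these libraries known, so it is not independent evidence of a direction.

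Markers of the cells that the c-Kit-positive fraction can hold moved with the labels as well; the counts of each list are to be read against the 10.6% of all tested genes that were higher and the 11.3% that were lower. Of 10 stem cell surface markers 8 were higher and 2 did not pass. Their summed level was 18535 to 23067 normalised reads under the label WT and 28360.0 to 33334 under the label Runx1 KO. Most of that sum was Cd34 (means 7717 and 10691) and Adgrg1 (11051 and 16388), so it says little of weaker markers such as Slamf1 (95.3 and 548). Of 7 tested megakaryocyte markers 5 were higher and 2 did not pass, with sums of 3065 to 3712 and 4038 to 6474. Of these 2, Ppbp was higher in every library labelled Runx1 KO (limma adjusted p 0.0685). Pf4 was lower in every one, at 428, 448 and 477 against 391, 238 and 153 normalised reads (limma adjusted p 0.0782). Of 8 erythroid markers 4 were lower and 4 did not pass, with sums of 11133 to 18277 and 9379 to 16069.6. The 4 lower were Hbb-bt, Hba-a1, Alas2 and Slc4a1, genes of haemoglobin, haem synthesis and the red cell membrane. Of those that did not pass, Klf1, Epor and Ermap had means 1.73, 1.64 and 1.61 times those under the label WT (limma adjusted p 0.0816, 0.107 and 0.167). Klf1, a red cell transcription factor, had 1516, 1990.0 and 3160 normalised reads in Runx1 KO replicates 1 to 3, and Epor, the erythropoietin receptor, 726, 931 and 1458; these and Ermap were highest in replicate 3, as Gfi1b was.

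Of 8 B-cell markers 5 were lower and 3 did not pass, with sums of 6139 to 24479.8 and 1123 to 2991, and Ets1, Spib and Bcl11a are also expressed in that lineage. Of 8 markers of plasmacytoid dendritic cells, 2 were lower (Spib and Ly6d), 1 was higher (Runx2) and 5 did not pass. Their sums were 14673 to 23599 and 10885 to 16938. Siglech and Ccr9, which did not pass, had log2 changes of -3.13 and -2.59 (limma adjusted p 0.0609 and 0.0696). Tcf4, Irf8 and Bst2 had -0.15, -0.28 and 0.31 and did not pass either. Of 8 neutrophil markers 6 were lower and 2 did not pass, with sums of 261209 to 309951 and 146055 to 186276. Of 8 markers of mast cells and basophils 4 were lower and 4 did not pass, with sums of 14146 to 18214 and 12791 to 14316. The 4 lower were Prss34, Fcer1a, Mcpt8 and Ms4a2. Their means were 2899, 252, 1662 and 901 normalised reads under the label WT and 3.73, 3.03, 132 and 341 under the label Runx1 KO. Cpa3, Gata1, Hdc and Cd200r3, which did not pass, had log2 changes of 0.40, 0.57, 0.31 and 0.57. Hdc, with means of 6503 and 8021, was the largest part of the sums.

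Endothelial cells also express Erg and Fli1. Of 8 endothelial markers 3 were higher, namely Kdr, Emcn and Robo4, and 5 did not pass, with sums of 4053 to 5411 and 4576 to 5711 that overlapped. Of these 5, Cdh5, Stab2, Tie1 and Pecam1 had log2 changes of -0.83, -1.29, -0.21 and -0.06, and Plvap had 0.87. Of 8 T-cell markers 0 passed in limma (3 at an unadjusted p under 0.05) and 0 in edgeR, with sums of 1298 to 1832 and 411 to 1404. In these 9 lists 1 marker, the megakaryocyte gene Gp6, was at 0 in a library. The part of these cell types in the changes of the 10 factors was not tested.

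Genes that overlap a factor could alter its value, since whether counting used the strand is not given in the sources used here. If reads shared between genes were left uncounted, the values of the overlapping genes do not show how many were lost. Of the overlapping genes with shared exonic bases, the listed ones were weak: Gm26577, which shares 559 bases with Myb on the opposite strand, had between 15.3 and 35.6 normalised reads, Gm17089 with Etv6 between 7.91 and 19.9, and 4930538E20Rik with Bcl11a between 5.94 and 16.8.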

How the data were processed

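RNA of c-Kit-positive mouse bone marrow was sequenced from poly-A selected, stranded libraries, per the labels' protocols. The submitters' processing notes name HISAT2, HTSeq 0.9.1 and mm10/GRCm38; their order, the annotation, the strand setting and the normalisation step are not given in the sources used here. The deposited values are a normalised signal: in each library 100% of values were whole multiples of a single step (tolerance 0.001), the pattern left by whole reads scaled by 1 factor per library. The steps ran from 0.959 to 1.05, and in 4 libraries, at 0.989 to 1.01, the step alone is too near 1 to show that whole reads were recovered. Reads recovered by dividing by the step were used for depth and for alternative count tests and scalings.

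Genes were kept with edgeR's filterByExpr on the normalised read counts (minimum count 10, minimum total 15), which left 15410 and removed 4687. limma 3.58.1 (R 4.3.3, trended empirical Bayes, no covariate) was run on log2(value + 1) of the normalised read counts, adjusted by Benjamini-Hochberg over all tested genes. Fold changes are on that scale, which understates changes of low genes. A total of 3 reads corresponds to between 2.88 and 3.14 normalised reads. Alternatives were edgeR 4.0.16 and DESeq2 1.42.0 on recovered reads, limma-voom, TMM and library-total scaling, pseudocounts of 0.5 and 5, other filters, a replicate block, and each library left out. The fits were tested on simulated data. Levels between genes were compared per kb of merged exons (GENCODE M21, GRCm38), and ratios by exact permutation tests. Of the 20097 listed genes, 20090 were found in that annotation by identifier.

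The 10 factors and all gene and marker lists were chosen with earlier results of these data known. Genes named from a gene list are those past the threshold, fixed paralogs of a factor, and Kdm1a, Rcor1, Hdac1 and Hdac2. Those most like a factor are the 2 nearest profiles. A result of the corepressor list is not reported here.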

Additional observations from a re-analysis of the deposited data

How the results depend on the processing

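No log2 change of the 10 factors changed sign in any setting run. With all libraries, 105 of 110 alternative values stayed on the same side of the threshold; Fli1 lost its call with library totals, and Bcl11a gained one in 4 settings. With 1 library left out, 50 of 60 did; Fli1 lost its call 5 times, Etv6 3 times and Gfi1b once, and Bcl11a gained one. Leaving out each library in turn gave from 4 to 8 called factors against 7, from 3 to 8 called ETS genes against 7, and from 8 to 16 other regulators against 15. Over all genes the same fits called from 1367 to 3597 against 3370. The lowest counts were those without Runx1 KO replicate 2, and for ETS genes also those without WT replicate 2. The cause was not tested, beyond the smaller number of libraries.

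Whether the replicate numbers pair the libraries is not settled. Same-numbered libraries deviated from their group means with correlations of 0.287, 0.129 and -0.0104 across genes. Runx1 KO replicates 1 and 2 correlated best with the WT library of the same number. Runx1 KO replicate 3 correlated best with WT replicate 2 (0.235). With the replicate number as a block, limma called 8 factors, 8 ETS genes and 15 other regulators. It called 3843 of all genes, against 3370 without the block. Mecom, Prdm16 and Mycn had the fewest reads of the 10 factors; the effect of depth on the calls was not tested.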
